A study of Arabidopsis thaliana with 6 samples.

Results

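The 8 genes described here encode lipid transfer proteins of Arabidopsis thaliana. They are LTP1 to LTP6, for secreted proteins, and LTPG1 and LTPG2, for proteins held at the plasma membrane by a glycosylphosphatidylinositol anchor. They were taken by gene identifier from a table of 31276 genes, and all 8 were listed in it. Bulk RNA-seq was collected from the Col-0 accession, the only genotype in the study. The day 7 group came from pieces of hypocotyl, the embryonic stem, kept for 7 days on callus-inducing medium, where cut tissue forms callus. The day 0 group came from hypocotyls of 1-week-old seedlings sampled right after they were cut. Each group had 3 biological replicates, and the tissue is labelled callus throughout, also at day 0. Levels were given in TPM, a measure of transcript abundance that corrects for gene length and for the total of each library. The TPM of the 31276 listed genes did not reach the same sum in each library. It was 793808 to 908068 in the day 7 libraries and 811788 to 922411 in the day 0 libraries. TPM keeps no read numbers, so no sequencing depth can be stated.

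Lipid transfer proteins are small, cysteine-rich proteins whose fold encloses a cavity that binds fatty acids and other lipids. In young stems and leaves many of them are made in the epidermis and secreted to the wall, where they are linked to the building of the cuticle, the waxy outer layer of wax and cutin. The LTP genes are also known as the PR-14 family of pathogenesis-related proteins, and several respond to pathogens, drought or abscisic acid. LTPG1 and LTPG2 are known for their part in bringing wax components to the surface of the stem.

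In the RefSeq annotation of TAIR10.1, which leaves the nuclear chromosomes of TAIR10 as they were, 4 of the 8 genes lie as neighbouring pairs. LTP1 (AT2G38540, chr2:16130290-16131240, plus strand, listed there as LP1) follows LTP2 (AT2G38530, chr2:16128176-16129399, plus strand) after a gap of 890 bases. LTP4 (AT5G59310, chr5:23924990-23925957, minus strand) and LTP3 (AT5G59320, chr5:23928954-23929816, plus strand) point away from each other across 2996 bases. LTP5 (AT3G51600, chr3:19138338-19139423, minus strand) and LTP6 (AT3G08770, chr3:2664069-2664888, minus strand) lie apart on chromosome 3. LTPG1 (AT1G27950, chr1:9740508-9742159, plus strand) and LTPG2 (AT3G43720, chr3:15615386-15617309, minus strand) each have a coding sequence of 582 bases, against 339 to 357 bases in the 6 LTP genes.

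The neighbouring pairs are alike in their coding sequences and not in the stretch just upstream. The coding sequences of LTP3 and LTP4 were 84.5% identical in a global alignment, and those of LTP1 and LTP2 were 82.5% identical. The other 26 pairs among the 8 genes ranged from 33.6% to 66.9%. In the 250 bases before the annotated transcript start, LTP3 and LTP4 were 43.9% identical and LTP1 and LTP2 49.8%, within the 38.1% to 50.8% of the other 26 pairs. These 4 upstream windows are shown because the genes of each pair stood at different levels. Each is written from 5′ to 3′ on the gene's own strand, for LTP1 chr2:16130040-16130289 (plus), LTP2 chr2:16127926-16128175 (plus), LTP3 chr5:23928704-23928953 (plus) and LTP4 chr5:23925958-23926207 (minus), from the TAIR10.1 genome of RefSeq. Capitals mark matches to the motifs searched.
LTP1: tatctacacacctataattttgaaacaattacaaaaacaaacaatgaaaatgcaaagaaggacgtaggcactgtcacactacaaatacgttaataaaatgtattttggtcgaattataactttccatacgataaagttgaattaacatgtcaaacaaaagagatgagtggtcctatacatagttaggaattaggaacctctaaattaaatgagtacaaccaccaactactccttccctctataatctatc
LTP2: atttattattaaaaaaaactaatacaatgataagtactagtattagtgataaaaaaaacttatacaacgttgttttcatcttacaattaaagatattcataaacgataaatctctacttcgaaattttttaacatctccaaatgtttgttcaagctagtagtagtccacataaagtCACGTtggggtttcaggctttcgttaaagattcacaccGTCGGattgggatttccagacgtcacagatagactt
LTP3: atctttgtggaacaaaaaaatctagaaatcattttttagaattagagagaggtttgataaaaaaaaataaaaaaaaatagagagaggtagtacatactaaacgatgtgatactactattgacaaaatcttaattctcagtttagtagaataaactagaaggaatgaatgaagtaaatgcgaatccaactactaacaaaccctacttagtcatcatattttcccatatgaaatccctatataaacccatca
LTP4: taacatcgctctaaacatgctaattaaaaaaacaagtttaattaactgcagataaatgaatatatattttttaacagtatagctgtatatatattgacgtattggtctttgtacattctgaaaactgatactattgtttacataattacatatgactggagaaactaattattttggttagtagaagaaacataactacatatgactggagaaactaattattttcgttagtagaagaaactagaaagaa

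Both strands of the 8 windows were searched for 5 short motifs known from plant promoters. They were ACGTG, the core of the abscisic acid response element, CACGTG, the G-box that contains it, CCGAC, the core of the dehydration response element, and TAAATGCA and TAAATGTA, forms of the L1 box of epidermal genes. LTP2 held ACGTG on its reverse strand, 70 to 74 bases before the start, and CCGAC on its reverse strand, 32 to 36 bases before the start, which read CACGT and GTCGG on the strand shown. The windows of the other 7 genes held none of the 5 motifs. The window of LTP5 runs into NPU, a gene that ends 54 bases upstream, so most of that window is the end of NPU, in this search and in the identities above. Among 27431 windows of the same length before nuclear protein-coding genes, ACGTG was found in 22.9%, CCGAC in 12.0%, CACGTG in 6.49%, TAAATGTA in 3.00% and TAAATGCA in 1.57%. A match is only a run of letters, and a window without one says nothing about a factor.

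**Figure D1:**
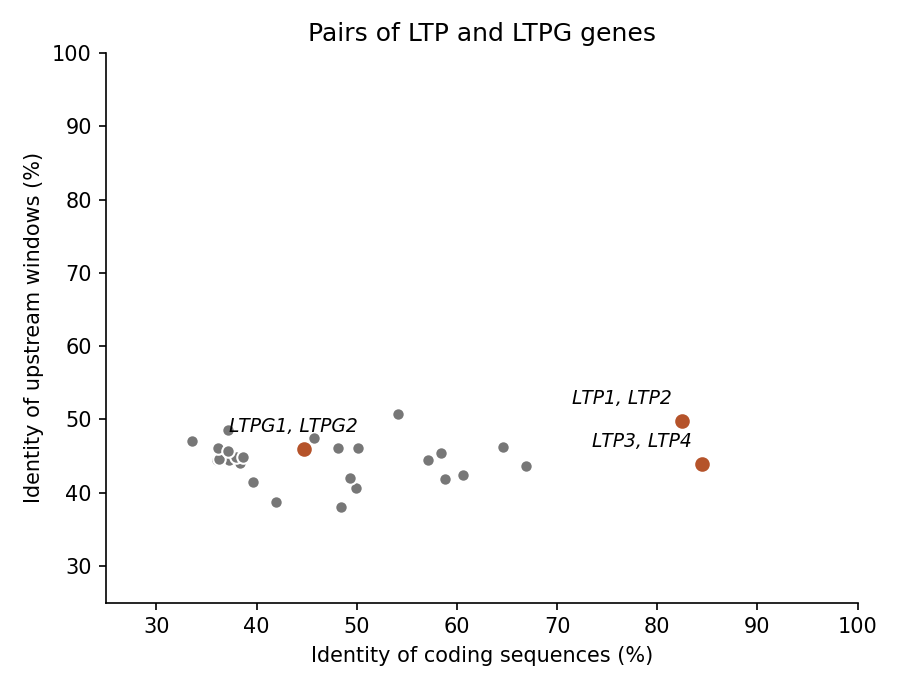
Identity of the upstream windows of 250 bases (vertical axis, %) against identity of the coding sequences (horizontal axis, %) for each pair of the 8 genes, 1 point per pair. The neighbouring pairs LTP1 with LTP2 and LTP3 with LTP4 stand at 82.5% and 84.5% on the coding axis, but at 49.8% and 43.9% on the upstream axis, among the other pairs.

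How reads common to related genes were shared out is not stated. The longest run of bases common to the transcripts of LTP3 and LTP4 was 44, and that of LTP1 and LTP2 was 40, against 9 to 17 for the other pairs. No run of 50 bases in any of the 8 genes occurred in the transcript of another annotated protein-coding gene. The read length is not given in the sources used here, so the levels within each neighbouring pair carry that uncertainty.

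The libraries differed in composition, which bears on every level below. Taken against a full 1000000 TPM, nuclear protein-coding genes held 37.6% to 80.9% in the day 7 libraries and 59.5% to 86.3% in the day 0 libraries. Replicate 2 was the highest in each group. The test was limma-trend on log2(TPM + 1) over 18608 genes with at least 1 TPM in at least 3 libraries, and a gene rose or fell if its Benjamini-Hochberg adjusted p was below 0.05. Its errors came from a variance trend over all genes and not from the single gene. A gene under 1 TPM in every library of 1 group could pass the filter only through the other group. Its direction was then set by the filter, also in the counts of all tested genes and of the lists below. The median log2 difference of all tested genes was 0.05 on the deposited scale, -0.01 after median-of-ratios scaling and 0.42 after rescaling TPM to the sum of nuclear protein-coding genes. On that last scale 9227 genes rose (49.6%) and 3909 fell (21.0%), against 2497 and 3015 on the deposited scale.

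All 8 genes passed the filter; 4 fell in day 7 callus, 1 rose and 3 did not pass. LTP1, LTP2, LTPG1 and LTPG2 fell, where 16.2% of all tested genes fell, and LTP5 rose, where 13.4% rose. The median log2 difference of the 8 was -1.09, against 0.05 for all tested genes. The TPM of the groups did not overlap for these 5 genes: 4 were lower at day 7, as were 19.5% of tested genes, and 1 was higher, as were 19.3%. After median-of-ratios scaling LTP3 passed as well and the others kept their calls, so that 2 of the 8 rose and 4 fell, where 31.0% and 33.9% of tested genes did. On the scale of nuclear protein-coding genes the 8 had the same calls as after median-of-ratios scaling, where 49.6% of tested genes rose and 21.0% fell on the nuclear scale. In bulk samples such as these, fewer cells of a type and less RNA per cell cannot be told apart.

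**Figure D2:**
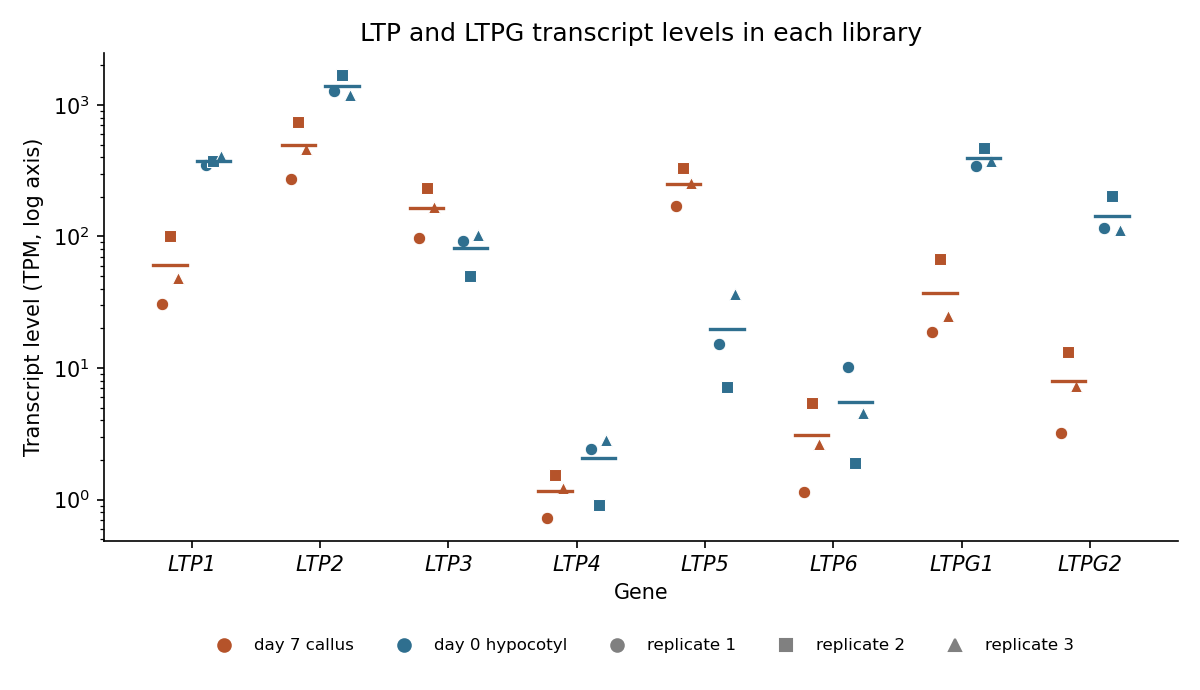
TPM of each gene in each library on a log axis, with day 7 callus left of day 0 hypocotyl for every gene; points are single libraries and lines are group means (n = 3 each). LTP1, LTP2, LTPG1 and LTPG2 are lower in every day 7 library than in any day 0 library, LTP5 is higher in every day 7 library, and the groups overlap for LTP3, LTP4 and LTP6.

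LTP2, known for its part in the cuticle and wall of the dark-grown hypocotyl, was the most abundant of the 8 in all 6 libraries. It stood at 276, 740 and 466 TPM in the day 7 libraries, against 1266, 1683 and 1193 TPM in the day 0 libraries. The highest day 7 library, replicate 2, stayed below the lowest at day 0. The means were 494 ± 233 TPM at day 7, against 1381 ± 264 TPM at day 0 (SD, n = 3 each), 2.80-fold lower at day 7, and the log2 difference was -1.58 (SE 0.42, limma adjusted p = 1.21e-03). Even so, LTP2 ranked 109th to 173rd of the 31276 genes at day 7, against 30th to 64th at day 0.

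LTP1, which the annotation places in the epidermal layer and the cell wall, had the larger fall of the neighbouring pair. It stood at 30.9, 101 and 48.7 TPM in the day 7 libraries, against 348, 372 and 406 TPM in the day 0 libraries. The day 0 values were close together, and each was more than 3 times any day 7 value. The mean was 60.2 ± 36.5 TPM at day 7, against 375 ± 28.9 TPM at day 0 (SD, n = 3 each), 6.23-fold lower at day 7, and the log2 difference was -2.79 (SE 0.43, limma adjusted p = 1.35e-09). The ratio of LTP2 to LTP1 within a library does not depend on how the library was scaled. It was 8.93, 7.33 and 9.57 at day 7 and 3.64, 4.53 and 2.94 at day 0, higher in every day 7 library than in any day 0 library.

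LTP3, known to respond to abscisic acid and drought, gave no call on the deposited scale. It stood at 97.7, 232 and 166 TPM in the day 7 libraries, against 91.8, 50.4 and 102 TPM in the day 0 libraries. Day 7 replicate 1 lay within the day 0 range, so the groups overlapped. The log2 difference was 0.99 ± 0.43 (SE, 95% interval 0.15 to 1.83, limma adjusted p = 0.0670), and the mean was 2.03-fold higher at day 7. After median-of-ratios scaling LTP3 was at 137, 148 and 170 scaled TPM at day 7 and at 118, 41.0 and 104 scaled TPM at day 0, without overlap. It then passed narrowly, and the log2 difference was 0.92 (SE 0.35, limma adjusted p = 0.0486). Leaving out day 7 replicate 1, 2 or 3 on that scale raised the limma adjusted p to 0.0799, 0.0956 and 0.129. Without day 0 replicate 1, 2 or 3 LTP3 passed, with differences of 1.20, 0.45 and 1.11 and limma adjusted p of 0.0214, 0.00994 and 0.0410. On the deposited scale LTP3 rose without day 7 replicate 1, with a difference of 1.32 and a limma adjusted p of 5.33e-03. By rank LTP3 stood 492nd to 622nd of the 31276 genes at day 7 and 1137th to 3210th at day 0.

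LTP4, annotated as strongly induced by abscisic acid and present in flowers and siliques, was the lowest of the 8 in all 6 libraries. It stood at 0.720, 1.55 and 1.23 TPM in the day 7 libraries, against 2.41, 0.910 and 2.85 TPM in the day 0 libraries. The groups overlapped, and the log2 difference was -0.45 ± 0.33 (SE, 95% interval -1.11 to 0.20, limma adjusted p = 0.329). Within a library LTP3 exceeded its neighbour LTP4 136-fold, 150-fold and 135-fold at day 7 and 38.1-fold, 55.4-fold and 36.0-fold at day 0. The pair with the closest coding sequences thus held the member with the lowest level and one of the 3 highest at day 7.

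LTP5, best known for its part in pollen tube growth, rose the most. It stood at 169, 330 and 254 TPM in the day 7 libraries, against 15.3, 7.20 and 36.8 TPM in the day 0 libraries. The lowest day 7 value was several times the highest day 0 value. The mean was 251 ± 80.3 TPM at day 7, against 19.8 ± 15.3 TPM at day 0 (SD, n = 3 each), 12.7-fold higher at day 7, and the log2 difference was 3.82 (SE 0.43, limma adjusted p = 4.50e-17). Only 98 of the 18608 tested genes had a higher log2 difference. LTP5 ranked 304th to 356th of the 31276 genes at day 7, against 3491st to 12648th at day 0, where replicate 2 was the lowest.

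The genes beside LTP5 did not share its pattern in level. NPU (AT3G51610), a gene of pollen wall formation on the same strand, ends 54 bases before the start of LTP5. NPU averaged 32.9 ± 13.1 TPM at day 7, against 33.4 ± 8.66 TPM at day 0 (SD, n = 3 each). On the other side LTP12 (AT3G51590), annotated as active in the tapetum of the anther, was listed at 0 in all libraries except day 7 replicate 2, where it stood at 0.710 TPM.

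LTP6, whose role is little described, was low and uneven. It stood at 1.14, 5.45 and 2.65 TPM in the day 7 libraries, against 10.11, 1.89 and 4.59 TPM in the day 0 libraries. The groups overlapped, and the log2 difference was -0.61 ± 0.40 (SE, 95% interval -1.39 to 0.17, limma adjusted p = 0.258). Without day 7 replicate 2 LTP6 fell, with a log2 difference of -1.01 and a limma adjusted p of 0.0164. Both low genes fell without day 0 replicate 2 once libraries were scaled by median of ratios, LTP6 with a log2 difference of -1.34 and a limma adjusted p of 0.0207 and LTP4 with -0.94 and 2.23e-03.

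LTPG1, whose loss alters the composition of cuticular lipids, fell in callus. It stood at 18.9, 67.3 and 24.8 TPM in the day 7 libraries, against 340, 470 and 375 TPM in the day 0 libraries. Every day 0 value was about 5 times the highest day 7 value or more. The mean was 37.0 ± 26.4 TPM at day 7, against 395 ± 67.1 TPM at day 0 (SD, n = 3 each), 10.7-fold lower at day 7, and the log2 difference was -3.58 (SE 0.43, limma adjusted p = 2.52e-15). The last 23 bases of LTPG1 overlap ECT9 (AT1G27960) on the other strand, and whether strand was used in counting is not stated. ECT9 stood at 10.2 to 21.3 TPM at day 7 and at 6.0 to 8.71 TPM at day 0, without overlap. Its difference did not pass on the deposited scale (0.90, limma adjusted p = 0.118), and ECT9 rose with median-of-ratios scaling (0.83, limma adjusted p = 2.08e-03).

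LTPG2, which overlaps with LTPG1 in wax delivery, fell the furthest of the 8. It stood at 3.21, 13.3 and 7.29 TPM in the day 7 libraries, against 115, 204 and 112 TPM in the day 0 libraries. The groups were far apart. The mean was 7.92 ± 5.05 TPM at day 7, against 144 ± 52.3 TPM at day 0 (SD, n = 3 each), 18.2-fold lower at day 7, and the log2 difference was -4.14 (SE 0.44, limma adjusted p = 1.75e-19). Of the tested genes 205 had a lower log2 difference, against 312 for LTPG1. The ratio of LTPG1 to LTPG2 was 5.89, 5.08 and 3.40 at day 7 and 2.96, 2.30 and 3.34 at day 0.

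**Figure D3:**
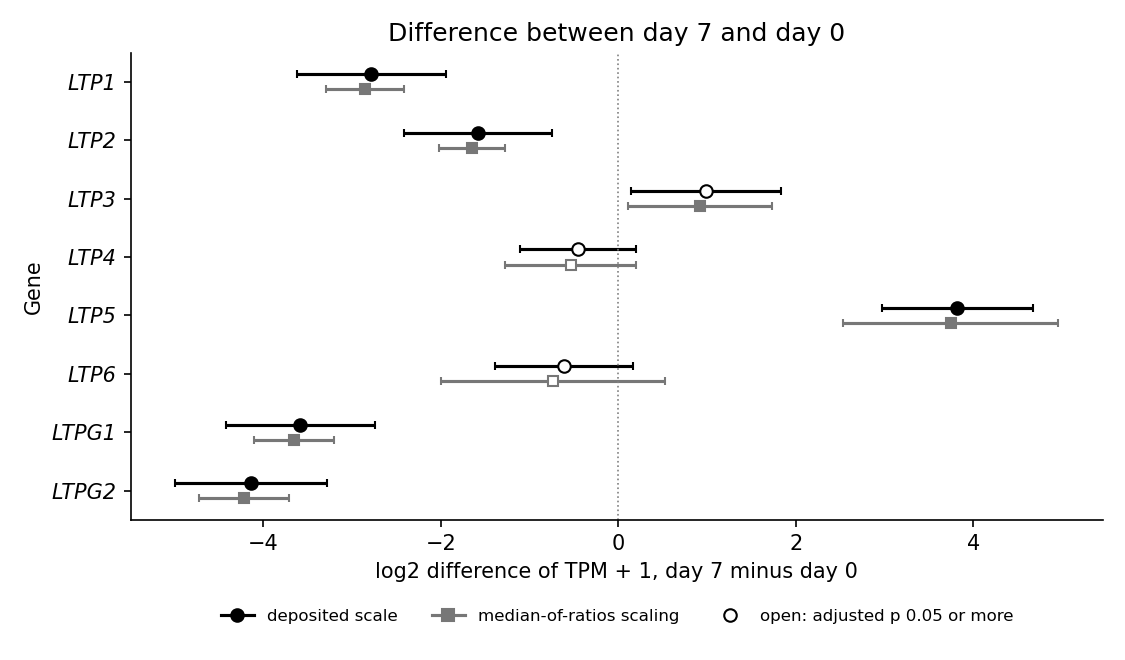
Difference in log2(TPM + 1) between day 7 and day 0 for each gene, on the deposited scale (circles) and after median-of-ratios scaling (squares), with 95% intervals from limma; open symbols had an adjusted p of 0.05 or more. The differences of LTP1, LTP2, LTPG1 and LTPG2 lie below 0 and that of LTP5 above 0 on both scales, and LTP3 is open on the deposited scale and filled after scaling.

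Relative to the median of all tested genes the differences moved little between most scales. LTP5 stood 3.77 above that median on the log2 scale as deposited, 3.76 after median-of-ratios scaling and 3.82 with rescaling over nuclear protein-coding genes. LTPG2 stood at -4.19, -4.21 and -4.26 from it, and LTP3 at 0.94, 0.93 and 0.97. Of the 8 genes LTP2 moved the most, from -1.63 as deposited to -0.89 with quantile normalization, and fell under each.

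The make-up of the LTP and LTPG transcript pool differed between the groups. Summed over the 8 genes, day 7 callus held 597, 1490 and 970 TPM, against 2190, 2790 and 2233 TPM in day 0 hypocotyls. The mean was 2.36-fold lower at day 7, and the groups did not overlap. Shares of this sum are free of library scaling. LTP5 held 28.3%, 22.1% and 26.1% of it at day 7 and 0.701%, 0.258% and 1.65% at day 0. LTP3 held 16.4% ± 0.776 at day 7, against 3.53% ± 1.51 at day 0 (SD, n = 3 each). LTPG1 held 3.41% ± 1.00 at day 7 and 16.4% ± 0.742 at day 0, and LTP1 held 5.65% ± 0.976 at day 7, against 15.8% ± 2.43 at day 0 (SD, n = 3 each).

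LTP2 remained the largest part of the pool, with 47.9% ± 1.75 at day 7, against 57.2% ± 3.5 at day 0 (SD, n = 3 each). LTPG2 held 0.726% ± 0.177 at day 7, against 5.87% ± 1.26 at day 0 (SD, n = 3 each). The shares of LTP3 and LTP5 were higher in every day 7 library than in any day 0 library, and those of LTP1, LTP2, LTPG1 and LTPG2 were lower. Each of these 6 gave an exact two-sided permutation p of 0.1, the smallest that 3 against 3 libraries allow, and 0.133 after Benjamini-Hochberg adjustment over the 8 shares. LTP4 and LTP6 held under 1% in every library, with overlapping groups and exact permutation p of 0.7 and 0.9. The summed TPM also gave an exact permutation p of 0.1, and as a share of nuclear protein-coding TPM it was 0.177% ± 0.0154 at day 7, against 0.335% ± 0.0290 at day 0 (SD, n = 3 each), without overlap.

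**Figure D4:**
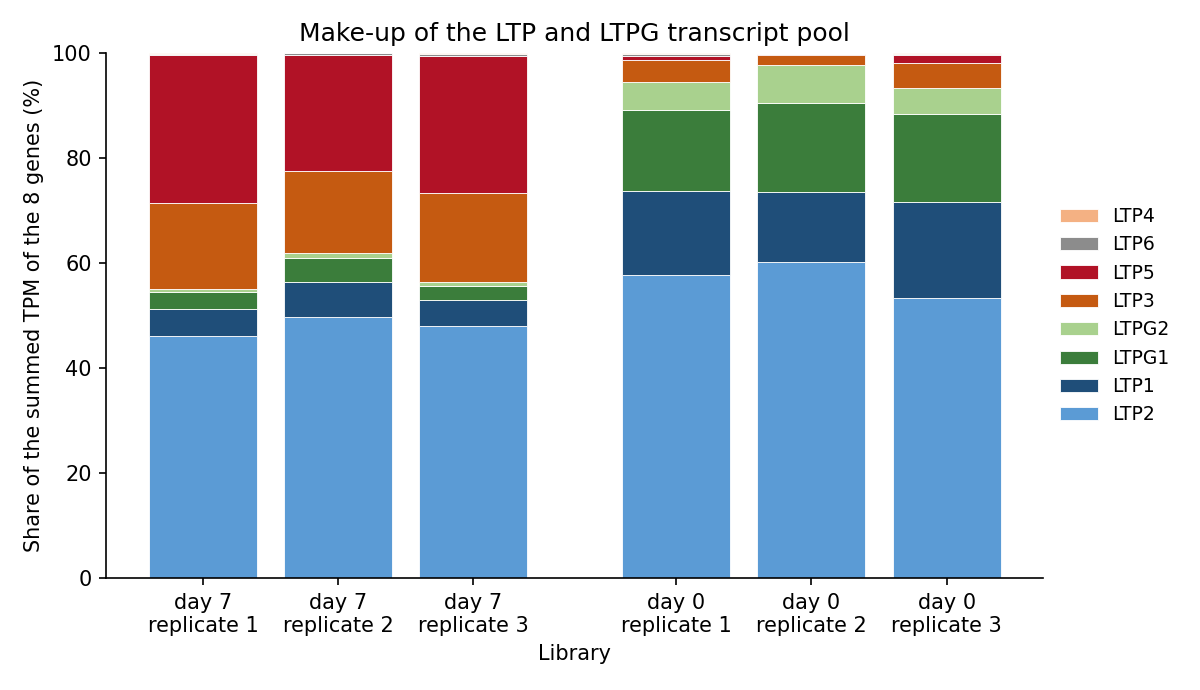
Share of each gene in the summed TPM of the 8 genes (vertical axis, %) in each library, day 7 on the left and day 0 on the right. LTP3 and LTP5 together fill a large part of every day 7 bar (LTP5 22.1% to 28.3%) and little of any day 0 bar (LTP5 0.258% to 1.65%), where LTP1, LTPG1 and LTPG2 take more.

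The order of levels was the same in all 3 day 7 libraries, with LTP2 highest, followed by LTP5, LTP3, LTP1, LTPG1, LTPG2, LTP6 and LTP4. In the day 0 libraries it ran LTP2, then LTP1 and LTPG1, then LTPG2, LTP3, LTP5, LTP6 and LTP4. LTP1 and LTPG1 changed places in day 0 replicate 2, so they did not differ beyond their spread. At day 7 the ranges over libraries overlapped for every pair of neighbours in the order except LTPG1 and LTPG2. At day 0 they overlapped for LTP1 and LTPG1, for LTP5 and LTP6 and for LTP6 and LTP4, and not for the other neighbours. These ranges include the scale differences between libraries, which cancel within a library. The ratio of LTP3 to LTP1, for example, was 3.17, 2.30 and 3.41 in the day 7 libraries.

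The few other PR-14 genes that could be tested also went both ways. The annotation lists 15 PR-14 genes, LTP1 to LTP15, of which 9 are not among the 8 described here. Of these 9 only 3 were expressed highly enough to be tested. Among the 3 tested, 1 rose and 2 fell, where 13.4% of all tested genes rose and 16.2% fell. LTP10 (AT5G01870) rose, with 347, 1118 and 558 TPM at day 7 and 96.0, 47.5 and 107 TPM at day 0 (8.08-fold, log2 difference 2.91 ± 0.43, SE, limma adjusted p = 1.70e-10). LTP8 (AT2G18370) fell to 10.6 ± 7.52 TPM at day 7, against 48.0 ± 3.01 TPM at day 0 (SD, n = 3 each; 4.53-fold lower), and LTP7 (AT2G15050), named here after its value was seen, fell to 0.143 TPM at day 7, against 2.43 TPM at day 0. LTP7 was below 1 TPM in every day 7 library, so it passed the filter through day 0 alone and could only fall. LTP9, LTP11, LTP13, LTP14 and LTP15 were listed at 0 in all 6 libraries.

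Most tested genes of the wider lipid transfer superfamily fell. Besides the 8, the annotation gives 124 genes a product name that mentions lipid transfer, and 42 of them were tested. For most this is the name of a superfamily shared with bifunctional inhibitors and 2S albumins of seed storage. Not all of them need be lipid transfer proteins. All 9 of the other PR-14 genes are among the 124, so the 3 tested ones above are counted here again. Of these 42 genes 34 fell, 2 rose and 6 did not pass, where 16.2% of all tested genes fell and 13.4% rose. The median log2 difference was -2.85, against 0.05 for all tested genes, and after median-of-ratios scaling 34 fell and 4 rose. Many of those that fell, such as AT4G12490 and LTP7, were below 1 TPM in every day 7 library. Such genes passed the filter through day 0 alone and could only fall, so the count and median are partly set by the filter. EARLI1 (AT4G12480) and AT4G12490, of the hybrid proline-rich branch, had the largest differences, with 1.94 ± 2.13 TPM at day 7 and 2895 ± 937 TPM at day 0 for EARLI1, and 0.050 ± 0.087 TPM at day 7 and 881 ± 230 TPM at day 0 for AT4G12490 (SD, n = 3 each). LTP10 was one of the 2 that rose, and the other, AT1G73780, named after its value was seen, stood at 6.69 TPM at day 7 and 1.03 TPM at day 0.

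Most genes that make and export the cuticle fell, as did LTP1, LTP2, LTPG1 and LTPG2. Of 10 tested wax synthesis genes 9 fell, with a median log2 difference of -2.54. The shares over all tested genes, here and for the lists below, were 16.2% that fell and 13.4% that rose. CER2 (AT4G24510), needed for the longest wax chains, stood at 0.253 TPM at day 7 and 93.1 TPM at day 0. KCS1 (AT1G01120), a fatty acid elongase, stood at 4.16 TPM at day 7 and 182 TPM at day 0. CER2, CER1 and CER4 were below 1 TPM in every day 7 library, so they passed the filter through day 0 alone and could only fall. The count and median of the wax list are thus partly set by the filter. LACS1 (AT2G47240), an acyl-activating enzyme named after its value was seen, was the 1 that rose, at low levels (2.09 TPM at day 7 and 0.883 TPM at day 0), and with median-of-ratios scaling its limma adjusted p was 0.0580. The transporters ABCG12 (AT1G51500) and ABCG11 (AT1G17840), which export wax and cutin precursors, stood at 5.79 and 5.27 TPM at day 7 and at 49.6 and 43.4 TPM at day 0. Of the 4 export genes 3 fell and 1 did not pass.

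Cutin synthesis genes were mostly lower too, and 9 of 10 tested genes fell and 1 did not pass (median log2 difference -2.63). CYP86A2 (AT4G00360), a fatty acid hydroxylase, averaged 2.63 TPM at day 7 and 144 TPM at day 0, and GPAT4 (AT1G01610), an acyltransferase, 4.91 TPM at day 7 and 56.7 TPM at day 0. Among 9 tested cuticle regulators and epidermal identity genes 7 fell, 1 rose and 1 did not pass. MYB16, among those that fell, was below 1 TPM in every day 7 library and could only fall. FDH (AT2G26250), an elongase of the epidermis, stood at 13.1 TPM at day 7 and 131 TPM at day 0, and ATML1 (AT4G21750), which specifies epidermis, at 1.91 TPM at day 7 and 16.0 TPM at day 0. The gene that rose was DEWAX (AT5G61590), a repressor of wax synthesis, with 3.84 TPM at day 7 and 0.870 TPM at day 0, named after its value was seen.

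Some markers of cell types differed between the groups, in both directions. The 4 epidermis markers, ATML1, FDH, PDF1 and PDF2, all fell. All of them belong to the list of cuticle regulators and epidermal identity genes above, so they are counted here again. Their summed level was 15.9 to 57.1 TPM in the day 7 libraries and 124 to 271 TPM in the day 0 libraries, without any of them at 0 throughout a group. Of the 3 root meristem markers 2 rose, with sums of 71.1 to 174 TPM at day 7 and 21.0 to 25.8 TPM at day 0. All 3 root cap markers rose, with sums of 59.6 to 144 TPM at day 7 and 12.6 to 20.8 TPM at day 0. Of these, BRN1 and BRN2 were below 1 TPM in every day 0 library. They passed the filter through day 7 alone and could only rise. Of the 4 endodermis markers 1 rose, 2 did not pass and CASP1, listed at 0 in all day 7 libraries, was too low to test. In the phloem list 2 of 3 fell, and in the xylem list 1 of 3 rose. The xylem gene that rose, VND7, was also below 1 TPM in every day 0 library and could only rise. Over all tested genes 16.2% fell and 13.4% rose. The xylem sums overlapped, at 34.7 to 61.0 TPM at day 7 and 49.3 to 58.6 TPM at day 0. With libraries scaled by median of ratios SCR and ESB1 of the endodermis list rose too, and XCP1 of the xylem list fell. The part of these markers in the levels of the LTP and LTPG genes was not tested.

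Genes of the abscisic acid and drought response went both ways. Of 14 tested 8 fell, 3 rose and 3 did not pass, where 16.2% of all tested genes fell and 13.4% rose. The median log2 difference was -1.44. RD29B, RAB18 and NCED3, among those that fell, were below 1 TPM in every day 7 library. They passed the filter through day 0 alone and could only fall, so this count and median are partly set by the filter. With median-of-ratios scaling 8 fell and 4 rose, where 33.9% of all tested genes fell and 31.0% rose. KIN2 (AT5G15970), a cold- and abscisic acid-induced gene, stood at 5.75 TPM at day 7 and 140 TPM at day 0. COR47 (AT1G20440), a dehydrin gene, stood at 257 TPM at day 7 and 20.7 TPM at day 0, and rose by 3.54 on the log2 scale (SE 0.43, limma adjusted p = 8.14e-15). LTP3 and LTP4, both known to be induced by abscisic acid, did not pass on the deposited scale.

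**Figure D5:**
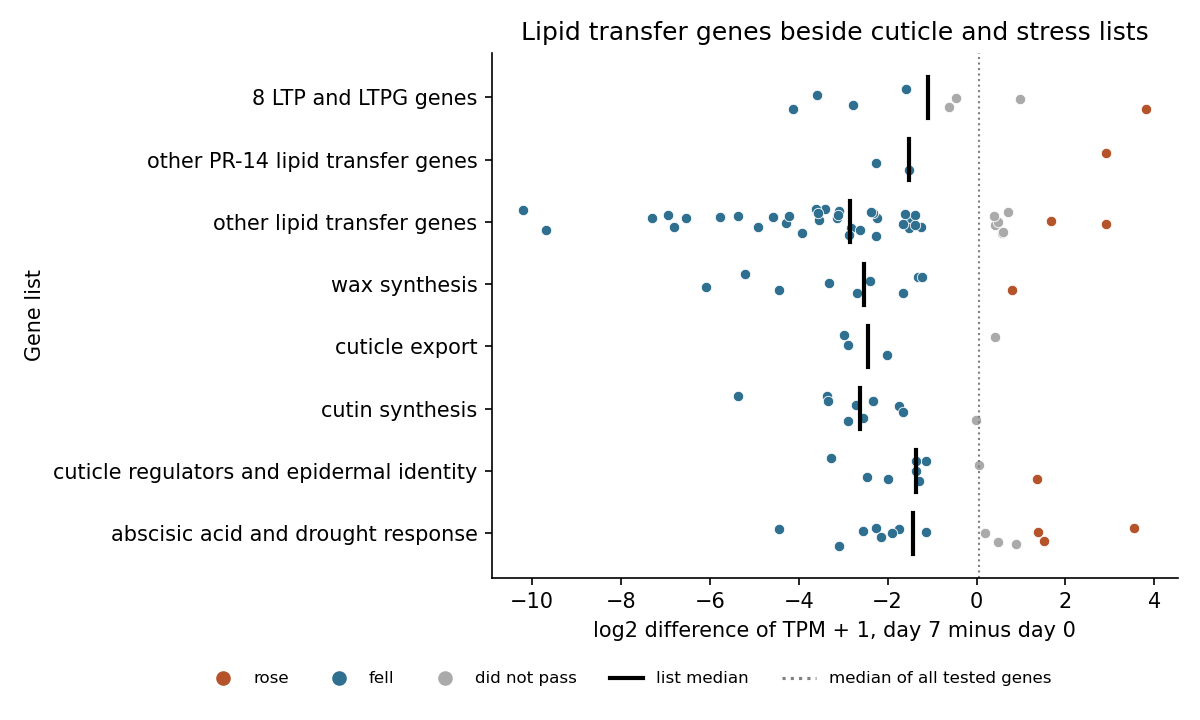
Log2 difference between day 7 and day 0 of every tested gene in each list (horizontal axis), coloured by its call, with a black bar at the list median and a dotted line at the median of all tested genes. The other lipid transfer, wax, export and cutin lists lie mostly below 0, with medians of -2.85, -2.54, -2.45 and -2.63, and the 8 LTP and LTPG genes spread to both sides.

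For each member the 2 genes with the nearest profile over the 6 libraries are given. These profiles include the difference between the groups, so nearness does not show that genes varied together within a group. Likeness was the root mean square difference between profiles of log2(TPM + 1) over the 6 libraries, each centred on its own mean, among 10643 tested genes with a mean of at least 10 TPM. Nearest to LTP5 were AT3G15240, annotated as similar to WNK kinases (0.239 on the log2 scale), and ADH1 (AT1G77120, 0.261), the alcohol dehydrogenase of fermentation. Nearest to LTPG1 were 2 class III peroxidase genes, AT3G32980 (0.0777) and AT2G38380 (0.0780). AGP2 (AT2G22470), for an arabinogalactan protein of the cell surface, was the nearest to LTPG2 (0.0770), followed by AT1G67330 (0.190). LTP1 was nearest to PHI-1 (AT1G35140, 0.109) and AT4G30470 (0.13), and LTP2 to the lectin gene AT3G15356 (0.0792) and SEC61 BETA (AT2G45070, 0.0906), for a subunit of the secretory translocon. For LTP3 they were AT5G52050 (0.126), of the MATE efflux family, and AT3G26770 (0.168).

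Of the low members, LTP4 was nearest to AT5G10700 (0.137) and MBF1C (AT3G24500, 0.207), a transcriptional coactivator of heat stress, and LTP6 to MBF1C (0.350) and BNS (AT1G73177, 0.415), a subunit of the anaphase-promoting complex. All such profiles share the same 6 libraries and their scale differences, so likeness over them is a description only.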

How the data were processed

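TPM values were computed by the authors before they were deposited, and were rounded to 2 decimals. STAR 2.7.10a, RSEM 1.3.1 and the TAIR10 build appear in the submitters' processing notes without a role for each; the annotation version, filters and the handling of shared reads are not given in the sources used here. All 6 library columns were used, and 0 were left out. The replicates are called biological by the submitters.

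Differences between day 7 and day 0 were tested with limma-trend (limma 3.58.1, R 4.3.3) on log2(TPM + 1), a scale that understates changes of low genes. Genes needed at least 1 TPM in at least 3 libraries, and p was adjusted by Benjamini-Hochberg over the 18608 tested genes. Folds are ratios of mean TPM. The fit was tested on simulated data. Shares were compared by exact permutation (scipy 1.17.1). Alternatives were other pseudocounts, filters and scalings, a replicate block and leaving out each library.

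The members and gene lists were chosen with earlier results of these data known. The PR-14 list and the product names came from the RefSeq annotation. Named genes are all 8 members and, per list, the 2 largest called differences whose mean reached at least 5 TPM in either group, plus the largest one of the opposite direction, and the 2 nearest profiles of each member. Identities came from global alignment of nucleotides (Biopython 1.88; match 5, mismatch penalty 4, gap opening 10 and extension 0.5) in place of the planned protein alignment, since protein sequences were not used here.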

Additional observations from a re-analysis of the deposited data

How the results depend on the processing

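The calls of LTP1, LTP2, LTP5, LTPG1 and LTPG2 held under all 22 alternatives run. Their log2 differences ranged from -3.24 to -2.37 for LTP1, -1.93 to -0.81 for LTP2, 3.07 to 4.39 for LTP5, -4.12 to -3.20 for LTPG1 and -4.56 to -3.55 for LTPG2. The highest limma adjusted p was 1.60e-04 for LTP1, 0.0385 for LTP2, 2.68e-03 for LTP5, 3.57e-05 for LTPG1 and 3.71e-05 for LTPG2. LTP3 stayed positive (0.45 to 1.40) and passed in 10 of 22, with limma adjusted p from 4.95e-03 to 0.4. LTP4 passed as lower in 1 of 21 and LTP6 in 2 of 21. The count of the 8 genes that rose was 2 in place of 1 with median-of-ratios scaling, rescaling over nuclear protein-coding genes and quantile normalization. It was also 2 with no variance trend and with either replicate block. Of all tested genes 13.4% rose as deposited, 31.0% with median-of-ratios scaling and 49.6% with rescaling over nuclear protein-coding genes. Leaving out single libraries gave 1 to 2 of the 8 that rose and 4 to 5 that fell. Leaving them out after median-of-ratios scaling, an alternative chosen after seeing the data, gave 4 to 6 that fell.

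Over all tested genes 5765 rose and 6307 fell after median-of-ratios scaling, 9227 rose with rescaling over nuclear protein-coding genes, and 6479 rose and 5276 fell with quantile normalization. Leaving out single libraries gave 1021 (without day 7 replicate 3) to 3151 (without day 7 replicate 1) that rose and 1349 (without day 0 replicate 3) to 4888 (without day 7 replicate 2) that fell, and with median-of-ratios scaling 4424 to 6011 and 4783 to 5924. The cause was not tested. With the replicate block 5233 genes rose and 4886 fell, and with the block and median-of-ratios scaling 5668 and 6316. Deviations of same-numbered libraries from their group means correlated at 0.0970, 0.156 and 0.0316 across genes on the deposited scale. Libraries of different numbers correlated at -0.159 to 0.124. These values do not settle whether the numbers pair the libraries, and the main fit used no block. The share differences of LTP4 (-0.00172 to 0.0458 percentage points) and LTP6 (-0.0570 to 0.140) changed sign when single libraries were left out. Depth is unknown, so counting error for LTP4 and LTP6, the lowest of the 8, could not be given.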
